A study of Mus musculus with 9 samples.

Results

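The Timm and Tomm genes encode the translocases of the inner and outer mitochondrial membranes, and their mRNAs were examined in mouse oocytes that had been cryopreserved by either of 2 methods or left fresh. Members were all genes of the deposited table whose symbol is Timm or Tomm followed by a number. The rule reads names alone, but it was chosen with earlier results of these data known. There were 24 such genes among the 26358 in the table, 15 Timm and 9 Tomm. Of these, 22 passed a filter on low counts that left 17545 genes for testing.

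Nearly all mitochondrial proteins are made in the cytosol and have to be imported. Precursors are bound by the receptors of the TOM complex and pass the outer membrane through its channel, Tomm40. Those with a presequence then pass the inner membrane through the TIM23 complex, pulled in by an Hsp70 motor. Carrier proteins of the inner membrane are escorted through the intermembrane space by the small TIM chaperones and inserted by the TIM22 complex. The oocyte carries a large store of mitochondria that the early embryo inherits.

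The study compared 3 groups of 3 libraries each. For cryopreservation-2, the labels give a straw as the carrier, EG at 17.5%, trehalose at 1 M and nanoparticles called PVA/Fe3O4/GO. For cryopreservation-1 they give a cryotop, which is a thin strip that holds a very small volume, with EG and DMSO at 15% each and sucrose at 0.5 M. Fresh oocytes were not frozen. Carrier, solutes and nanoparticles differ together between both methods, so their parts cannot be told apart. The labels give no strain, animal age, stage of maturation or number of oocytes per library. They do not say whether replicates were taken from different animals or pools either. P-values therefore speak only of the spread among these libraries, and that spread may be technical.

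Total counts were 49337232 to 51369012 in the cryopreservation-2 libraries, 64276885 to 80877288 in cryopreservation-1 and 73899130 to 80100460 in fresh. Depth was thus lower throughout cryopreservation-2, and its part in the differences given here was not tested. Oocyte markers, 10 genes such as Zp3, took between 1.25 and 1.86% of the counts of each library. Most of this was Gdf9 and Dppa3. Ooep had 406, 781 and 915 CPM (TMM-scaled) in cryopreservation-2 and 109 to 397 CPM in the other groups. Nobox had 152, 181 and 130 CPM against 85.2 to 125 CPM, and Zp2 had 138, 100 and 84.8 CPM against 66.9 to 79.7 CPM. The other oocyte markers overlapped between cryopreservation-2 and the other groups. For cumulus and granulosa cells 6 of 10 markers were in the table. Their summed share was 0.00346 to 0.00756% in cryopreservation-2, 0.00557 to 0.00606% in cryopreservation-1 and 0.00601 to 0.00681% in fresh. Most of it was Cyp19a1, with 27.9 to 72.0 CPM (TMM-scaled) in cryopreservation-2, 55.5 to 61.5 CPM in cryopreservation-1 and 61.6 to 68.3 CPM in fresh. The 5 immune and blood markers summed to 0.000297 to 0.00134% in cryopreservation-2, 0.000688 to 0.00146% in cryopreservation-1 and 0.000893 to 0.00126% in fresh. Among them Hba-a1 had 19, 7 and 3 counts in cryopreservation-2 and 0 in the other 6 libraries. The 4 stromal and endothelial markers in the table summed to 0.0113 to 0.0200% in cryopreservation-2, 0.00961 to 0.0173% in cryopreservation-1 and 0.00977 to 0.0166% in fresh. Most of this was Pecam1, with 60.6 to 155 CPM in cryopreservation-2, 72.5 to 157 CPM in cryopreservation-1 and 86.7 to 152 CPM in fresh. Col1a1 was at 0 in all libraries but 1. Of the 18 markers of all lists that were tested, Myh11 alone passed the edgeR test in a comparison, that of cryopreservation-2 against fresh (38.4, 34.2 and 36.2 CPM, TMM-scaled, in cryopreservation-2, against 21.7, 16.8 and 20.7 CPM in fresh). Its part, and those of Hba-a1 and of the oocyte markers, in the results below were not tested. All Timm and Tomm genes together took 0.0719 ± 0.00505% of counts in cryopreservation-2, 0.0731 ± 0.0150% in cryopreservation-1 and 0.0699 ± 0.00828% in fresh (mean and SD of 3 libraries). With TMM scaling they summed to 652 ± 9.14 CPM in cryopreservation-2, 760 ± 152 CPM in cryopreservation-1 and 747 ± 145 CPM in fresh. These are bulk poly(A) libraries, so all levels given here are of RNA caught by its poly(A) tail. Fewer cells, less RNA per cell and a change of the tail cannot be told apart in them.

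Levels of the Timm and Tomm genes spanned more than 3 orders of magnitude. They are given here as the deposited FPKM, which is per length. The length used for each gene is not given and can differ from the transcript lengths used further on. Ranks, classes and ratios between genes are therefore approximate. In the cryopreservation-2 libraries 6 of 24 genes averaged above 10 FPKM, 10 lay between 1 and 10 FPKM and 8 lay below 1 FPKM. The same classes held 5, 8 and 11 genes in cryopreservation-1 and 5, 6 and 13 genes in fresh. Few neighbours in the order of levels were separated by more than their spread. The ranges over 3 libraries did not overlap for 8 of 23 neighbouring pairs in cryopreservation-2, 5 in cryopreservation-1 and 6 in fresh.

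Timm8b, one of the small TIM chaperones, ranked first in cryopreservation-2 and second to Timm23 in cryopreservation-1 and fresh, where the ranges of both genes overlapped. It averaged 172 ± 18.8 FPKM in cryopreservation-2, 117 ± 25.1 FPKM in cryopreservation-1 and 107 ± 20.6 FPKM in fresh (mean and SD of 3 libraries, as in all such values). Timm23, the channel subunit of the TIM23 complex, had 87.1 ± 10.2 FPKM in cryopreservation-2, 138 ± 74.4 FPKM in cryopreservation-1 and 114 ± 33.6 FPKM in fresh. Its level is uncertain, because 90.9% of the 50-base stretches of its transcript also occur in the transcripts of other genes, 3 processed pseudogenes among them. Tomm34, a cytosolic cochaperone that binds Hsp70 and Hsp90 and precursors on their way to the outer membrane, had 41.6 ± 2.11 FPKM in cryopreservation-2, 61.9 ± 7.18 FPKM in cryopreservation-1 and 65.6 ± 0.965 FPKM in fresh. Timm23, Tomm34, Timm8b and Timm21 together made up 70.3 to 73.7% of all Timm and Tomm counts in cryopreservation-2 libraries. Their share was 82.6 to 87.9% in cryopreservation-1 and 85.0 to 88.2% in fresh.

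The channel gene of the TOM complex and 2 of its 3 receptor genes lay below 1 FPKM in every group. The channel Tomm40 averaged 0.262 ± 0.189 FPKM in cryopreservation-2, 0.283 ± 0.155 FPKM in cryopreservation-1 and 0.256 ± 0.261 FPKM in fresh. The presequence receptor Tomm20 stood at 0.455 ± 0.0608 FPKM in cryopreservation-2, 0.453 ± 0.170 FPKM in cryopreservation-1 and 0.370 ± 0.253 FPKM in fresh. Tomm70a, the receptor for carrier proteins, had 0.289 ± 0.0773 FPKM in cryopreservation-2, 0.226 ± 0.0386 FPKM in cryopreservation-1 and 0.202 ± 0.110 FPKM in fresh. The central receptor Tomm22 was the most abundant of the receptors, at 4.08 ± 0.640 FPKM in cryopreservation-2, 4.10 ± 1.54 FPKM in cryopreservation-1 and 4.36 ± 1.47 FPKM in fresh.

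The genes at the bottom of the order were at or near 0. Timm22, the channel of the carrier insertion complex, averaged 0.0339 ± 0.0350 FPKM in cryopreservation-2, 0.0522 ± 0.0905 FPKM in cryopreservation-1 and 0.102 ± 0.0942 FPKM in fresh, and 4 of the 9 libraries had no count for it. Below the filter were Tomm5, a small TOM subunit, and Tomm40l, a paralog of the channel gene. Tomm5 had 21 counts in cryopreservation-2 replicate 1, 8 in cryopreservation-1 replicate 1 and 8 in fresh replicate 1, and 0 in the other libraries. Tomm40l had 15 counts in cryopreservation-1 replicate 3 and 0 elsewhere. Where a library had no count, up to 3 counts remain possible, a limit of 0.0372 to 0.0575 CPM over the libraries that covers counting error only. CPM stands for counts scaled to library size with TMM factors.

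**Figure D1:**
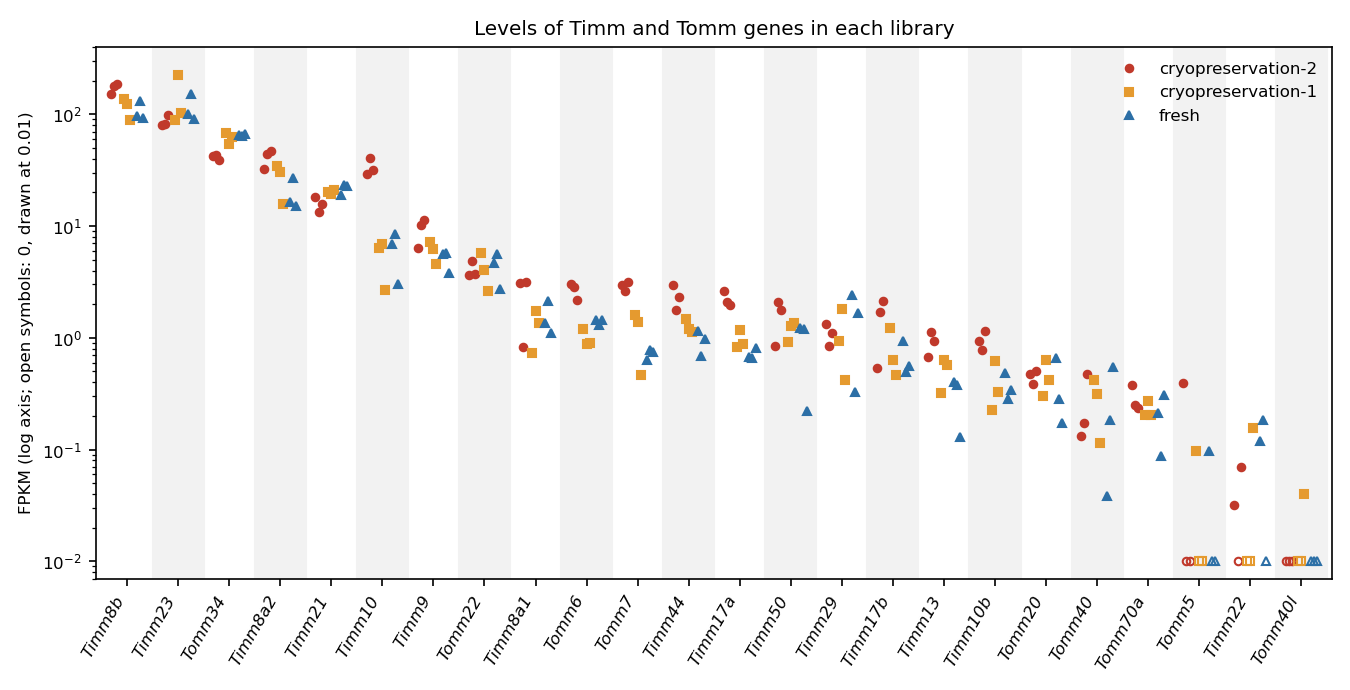
FPKM of the 24 Timm and Tomm genes in each library on a log axis, ordered by their mean over all libraries, with values of 0 drawn as open symbols at the bottom. Points are single libraries, 3 per group. Timm10 is the gene whose cryopreservation-2 points stand farthest above the others, at a mean of 33.8 FPKM against 5.28 FPKM in cryopreservation-1 and 6.19 FPKM in fresh.

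Cryopreservation-2 was then set against fresh, with all 9 libraries in 1 fit. In cryopreservation-2 oocytes Timm10 and Timm17a were higher and Tomm34 was lower by edgeR's quasi-likelihood test at an adjusted p under 0.05. These are 3 of the 22 tested Timm and Tomm genes, where 5.38% of all tested genes were called, 3.18% higher and 2.2% lower. The median log2 fold change was 0.60 over the 22 genes and -0.055 over all tested genes, and 15 of the 22 had a positive fold change against 47.6% of all tested genes. Levels from here on are CPM, except where FPKM or counts are named. CPM compare 1 gene between libraries and not the levels of different genes. Sums and shares of CPM over genes are of reads.

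Timm10 partners Timm9 in the hexameric chaperone that guides carrier proteins across the intermembrane space. It is listed as ENSMUSG00000027076 on the plus strand of chromosome 2, from 84826997 to 84830213 (GRCm38). It had 27.6, 35.2 and 26.8 CPM in cryopreservation-2 replicates 1 to 3, 5.92, 6.42 and 2.44 CPM in cryopreservation-1, and 6.39, 8.95 and 2.92 CPM in fresh. Each cryopreservation-2 library lay above each of the other 6 libraries, and the ranges of cryopreservation-1 and fresh overlapped. The level was 4.91-fold higher in cryopreservation-2 than in fresh, a log2 fold change of 2.30 with a standard error (SE) of 0.46 and an adjusted p of 0.0236 by edgeR with Benjamini-Hochberg adjustment. It no longer passed without fresh replicate 1 (adjusted p = 0.0678 by edgeR), fresh replicate 3 (0.0630), cryopreservation-2 replicate 2 (0.0638) or cryopreservation-2 replicate 3 (0.0585).

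Timm17a, a subunit of the TIM23 complex that lines its path with Timm23, was the other gene called higher. It is listed as ENSMUSG00000062580 on the minus strand of chromosome 1, from 135295213 to 135313778. It had 23.7, 17.7 and 16.2 CPM in cryopreservation-2, 7.52, 10.5 and 7.77 CPM in cryopreservation-1, and 5.97, 6.73 and 7.59 CPM in fresh. The cryopreservation-2 libraries again lay above the other 6 without overlap. The level was 2.83-fold higher in cryopreservation-2 than in fresh (log2 fold change 1.50, SE 0.27, edgeR adjusted p = 0.0164). It no longer passed when fresh replicate 1 was left out (edgeR adjusted p = 0.0564) or fresh replicate 3 (0.0506).

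Tomm34, listed as ENSMUSG00000018322 on the minus strand of chromosome 2 from 164053540 to 164071169, was the only tested Timm or Tomm gene called lower. It had 148, 142 and 124 CPM in cryopreservation-2, 240, 190 and 214 CPM in cryopreservation-1, and 225, 251 and 238 CPM in fresh. The cryopreservation-2 libraries lay below all 6 others, and those of cryopreservation-1 overlapped with fresh. The level was 1.73-fold lower in cryopreservation-2 than in fresh (log2 fold change -0.79, SE 0.17, edgeR adjusted p = 0.0306). This call was the least stable of these, holding in 6 of 16 alternative settings, with a log2 fold change of -0.83 to -0.64 over all of them. It was lost without any 1 of the fresh libraries (edgeR adjusted p = 0.0711, 0.0657 and 0.0914 for replicates 1 to 3), without cryopreservation-1 replicate 1 (0.0552) or 2 (0.0532), and without cryopreservation-2 replicate 2 (0.0774) or 3 (0.106).

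**Figure D2:**
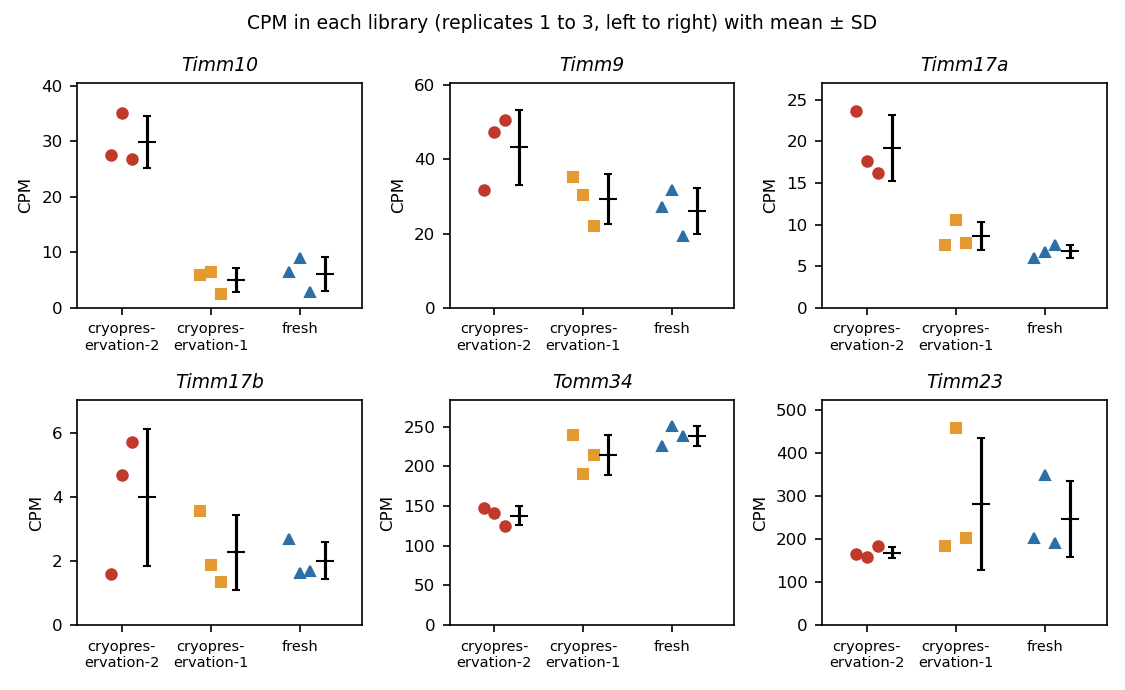
CPM of the called genes Timm10, Timm17a and Tomm34, with Timm9, Timm17b and Timm23 for comparison, in each library. Points are the replicates, and the bars beside them are the mean and SD of 3 libraries. For Timm10 the cryopreservation-2 points lie between 26.8 and 35.2 CPM, and the other 6 libraries lie between 2.44 and 8.95 CPM.

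All 6 small TIM chaperones had a positive fold change in cryopreservation-2 against fresh, though 1 of them, Timm10, passed the test. Timm9, the partner of Timm10, had 31.7, 47.4 and 50.7 CPM in cryopreservation-2, against 27.0, 31.8 and 19.4 CPM in fresh, and its groups overlapped by a narrow margin (log2 fold change 0.73, SE 0.28, edgeR adjusted p = 0.164). The ratio of Timm10 to Timm9 in FPKM was 3.76 ± 0.909 in cryopreservation-2, 0.857 ± 0.266 in cryopreservation-1 and 1.17 ± 0.350 in fresh. Both cryopreservation-1 and fresh ratios lay below every cryopreservation-2 ratio, which ranged from 2.78 to 4.58. The ratio holds the called gene Timm10 and is no separate support for that call. The transcripts have 690 bases for Timm10 and 2564 for Timm9, and the part of length in the ratio was not tested.

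The second pair of small TIM chaperones is Timm8 and Timm13, which guide precursors such as Timm23. Timm8b had 89.9, 99.4 and 100 CPM in cryopreservation-2, against 56.3, 86.6 and 57.0 CPM in fresh, with no overlap but no call (log2 fold change 0.53, SE 0.24, edgeR adjusted p = 0.231). Timm13 stood at 1.37 ± 0.303 CPM in cryopreservation-2 and 0.503 ± 0.254 CPM in fresh (log2 fold change 1.45, SE 0.69, edgeR adjusted p = 0.260). Timm8a2 averaged 40.5 ± 5.82 CPM in cryopreservation-2 and 21.5 ± 8.54 CPM in fresh (log2 fold change 0.91, SE 0.36, edgeR adjusted p = 0.166). Its X-linked paralog Timm8a1, whose human counterpart is mutated in a deafness and dystonia syndrome, had 3.69 ± 2.11 CPM in cryopreservation-2 and 2.64 ± 1.10 CPM in fresh. In FPKM, Timm8a2 exceeded Timm8a1 in all 9 libraries, by 10.4 to 53.4 times, but the Timm8a1 level is uncertain, since 41.0% of its 50-base stretches also occur in Gm9797 and none of those of Timm8a2 occur in another gene.

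In the TIM23 complex 3 of 5 genes had a positive fold change against fresh and 1, Timm17a, was called. Timm17b, the X-linked alternative to Timm17a, had 1.59, 4.69 and 5.72 CPM in cryopreservation-2 and 2.68, 1.64 and 1.71 CPM in fresh (log2 fold change 0.99, SE 0.56, edgeR adjusted p = 0.344). The FPKM ratio of Timm17a to Timm17b ranged from 0.917 to 4.89 in cryopreservation-2, 0.682 to 1.87 in cryopreservation-1 and 0.726 to 1.44 in fresh, so the groups overlapped in this ratio. Timm50, the receptor of the complex, had 4.55 ± 1.72 CPM in cryopreservation-2 and 2.88 ± 1.88 CPM in fresh (edgeR adjusted p = 0.581).

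Timm23 and Timm21 lay lower in cryopreservation-2 without overlap but were not called. Timm23 had 165, 158 and 183 CPM in cryopreservation-2, against 202, 349 and 190 CPM in fresh (log2 fold change -0.55, SE 0.36, edgeR adjusted p = 0.422). Timm21, which in yeast links the TIM23 complex to TOM and to the respiratory chain, had 78.8, 53.3 and 60.9 CPM in cryopreservation-2, against 79.3, 112 and 101 CPM in fresh (log2 fold change -0.60, SE 0.21, edgeR adjusted p = 0.128). Timm44, which tethers the Hsp70 motor to the channel, had 12.7, 7.04 and 8.90 CPM in cryopreservation-2, against 4.78, 3.29 and 4.27 CPM in fresh. Its log2 fold change of 1.21 (SE 0.32) missed the threshold in edgeR (adjusted p = 0.0575) and passed it in DESeq2 (adjusted p = 0.00489) and limma (adjusted p = 0.0395), which called 14.6% and 10.2% of all genes.

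In the TIM22 complex none of 3 genes was called, and 1 had a positive fold change. That gene was Timm10b, with 3.76 ± 0.654 CPM in cryopreservation-2 and 1.59 ± 0.348 CPM in fresh (log2 fold change 1.24, SE 0.48, edgeR adjusted p = 0.161). Timm29 had 3.77 ± 0.992 CPM in cryopreservation-2 and 5.40 ± 3.68 CPM in fresh, and its groups overlapped. Timm22 had 7, 0 and 14 counts in cryopreservation-2 and 36, 53 and 0 counts in fresh, a spread between replicates that left its fold change undetermined (log2 fold change -1.70, SE 2.29).

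No TOM receptor or channel gene was called against fresh. Tomm20, Tomm22, Tomm70a and Tomm40 had log2 fold changes of 0.19, -0.24, 0.41 and -0.12, with SEs of 0.53, 0.38, 0.48 and 0.88, and their groups overlapped. Both tested small TOM subunits, which help to assemble and stabilise the complex, lay higher in cryopreservation-2 without overlap. Tomm7 had 3.85, 3.19 and 3.70 CPM in cryopreservation-2, against 0.807, 1.12 and 1.00 CPM in fresh. Its log2 fold change of 1.87 (SE 0.53) missed the threshold in edgeR (adjusted p = 0.0695), and passed it in DESeq2 (adjusted p = 0.00691), in limma (adjusted p = 0.0121) and in edgeR without cryopreservation-1 replicate 3 (adjusted p = 0.0431). Tomm6 had 3.97, 3.45 and 2.57 CPM in cryopreservation-2, against 1.84, 1.9 and 1.93 CPM in fresh (log2 fold change 0.82, SE 0.40, edgeR adjusted p = 0.275), and 93.0% of its 50-base stretches occur in other genes.

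In all, 12 of the 22 tested genes did not overlap in CPM between cryopreservation-2 and fresh, 9 of them higher and 3 lower. Tomm6 is among those higher and Timm23 among those lower, and both share most of their sequence with other genes. Among all tested genes 27.5% did not overlap, 15.1% higher and 12.4% lower.

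**Figure D3:**
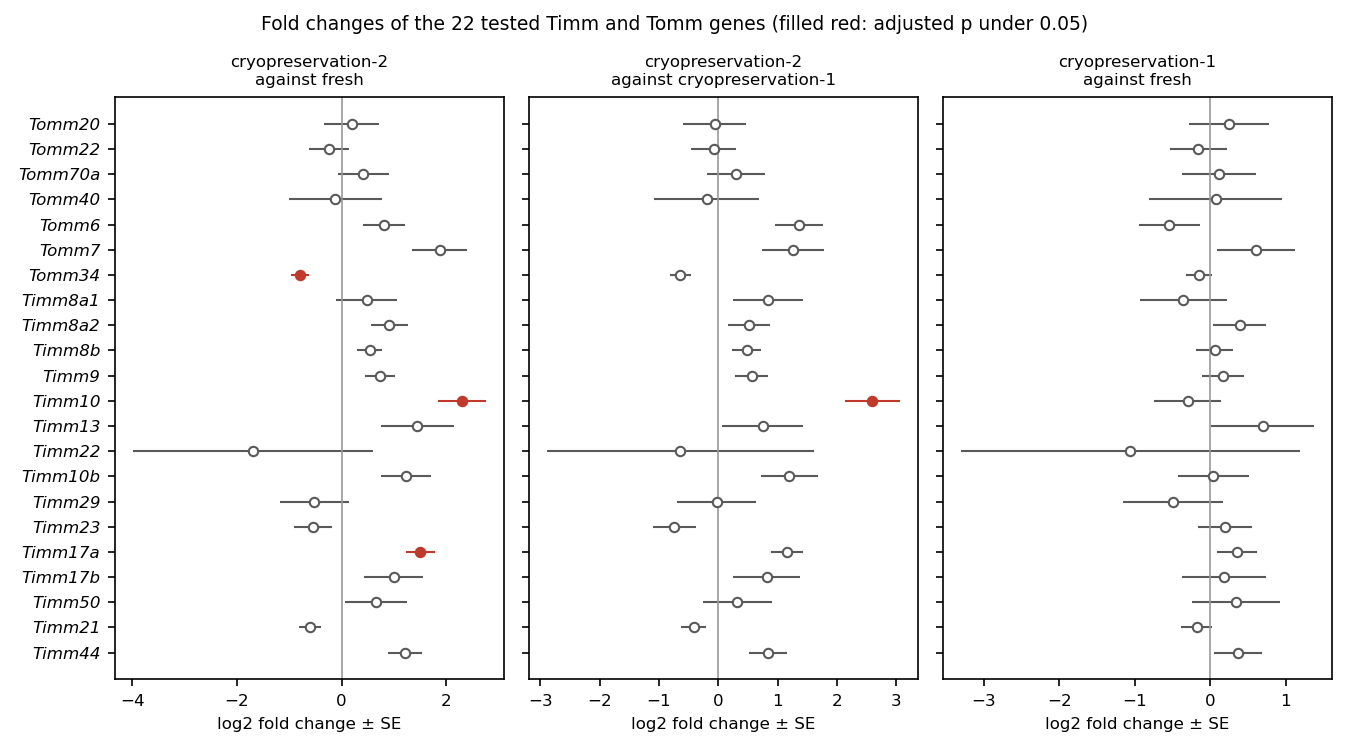
Log2 fold change with its SE for the 22 tested Timm and Tomm genes, by role from TOM receptors at the top to the motor at the bottom, in the 3 comparisons. Filled red points passed the edgeR test at an adjusted p under 0.05. They are Timm10, Timm17a and Tomm34 against fresh and Timm10 against cryopreservation-1, and there is none for cryopreservation-1 against fresh.

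Set against cryopreservation-1, cryopreservation-2 had 1 of 22 tested genes called, Timm10, which was higher. Of all tested genes 2.75% were called, 1.5% higher and 1.25% lower. The Timm10 level was 6.06-fold higher in cryopreservation-2 (log2 fold change 2.60, SE 0.47, edgeR adjusted p = 0.0233). The call was lost without cryopreservation-1 replicate 1 (edgeR adjusted p = 0.102), replicate 2 (0.0627) or replicate 3 (0.0947), and without cryopreservation-2 replicate 2 (0.0563) or replicate 3 (0.0616).

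Timm17a and Tomm34 did not pass the edgeR test between both methods. For Timm17a the level was 2.22-fold higher in cryopreservation-2 (log2 fold change 1.15, SE 0.27, edgeR adjusted p = 0.0521), and for Tomm34 the log2 fold change was -0.64 (SE 0.17, edgeR adjusted p = 0.0761). DESeq2, which called 11.4% of all genes it tested, called both, with adjusted p = 5.6e-04 and 0.00927. Limma, which called 6.7% of all genes, called Timm17a (adjusted p = 0.0390). After the length and GC correction described further on, the Tomm34 log2 fold change was -0.31 (edgeR adjusted p = 0.662) and that of Timm17a was 1.32 (edgeR adjusted p = 0.0284). Tomm6, with 3.33 ± 0.708 CPM in cryopreservation-2 and 1.3 ± 0.224 CPM in cryopreservation-1, had a log2 fold change of 1.36 (SE 0.41) and was called by DESeq2 (adjusted p = 0.00809) and limma (adjusted p = 0.0226) but not by edgeR (adjusted p = 0.101). The median log2 fold change was 0.50 over the 22 genes and -0.066 over all tested genes, with 14 of 22 positive against 46.8%. Fold changes differed with transcript length over all genes in this comparison, as given further on. The groups did not overlap for 8 genes higher and 3 lower, 11 of 22, where 29% of all tested genes did not overlap, 13.8% higher and 15.2% lower. Cryopreservation-2 is shared by this comparison and the one against fresh, so both rest in part on the same libraries.

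Cryopreservation-1 against fresh gave no call among the 22 genes, and 0% of all tested genes were called by edgeR. None of the 22 had an unadjusted p under 0.05, which 4.72% of all tested genes had. DESeq2 and limma also called none of the 22, where DESeq2 called 0.247% of all genes it tested. The median log2 fold change was 0.094 over the 22 genes, with a range of -1.06 to 0.69, and 0.024 over all tested genes. Timm10 averaged 4.93 ± 2.17 CPM in cryopreservation-1 and 6.09 ± 3.03 CPM in fresh (log2 fold change -0.30, SE 0.44). Timm17a averaged 8.61 ± 1.68 CPM in cryopreservation-1 and 6.76 ± 0.810 CPM in fresh (0.35, SE 0.27). Tomm34 averaged 214 ± 25.1 CPM in cryopreservation-1 and 238 ± 13.0 CPM in fresh (-0.15, SE 0.17). Over the alternatives the Timm17a value ranged from 0.18 to 0.44 and that of Tomm34 from -0.48, after the length and GC correction, to -0.068, without cryopreservation-1 replicate 2, and neither was called. The groups did not overlap for 1 gene, Tomm6, with 1.55, 1.17 and 1.16 CPM in cryopreservation-1 and 1.84, 1.9 and 1.93 CPM in fresh, where 10.1% of all tested genes did not overlap, 6.37% higher and 3.72% lower. Both comparisons with fresh share the fresh libraries. That a gene was called in one of them and not in the other does not show by itself that the methods differ, and the direct comparison above is the test of that.

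Other genes of mitochondrial import, together with genes of the cristae junction complex, were read from a list of 29, of which 28 were in the table and 27 were tested. The list was chosen with earlier results of these data known. Against fresh, 4 were higher and 1 was lower in cryopreservation-2, which is 18.5% of the 27 where 5.38% of all tested genes were called. Those higher were Mtx2 and Samm50 of the outer membrane sorting and assembly machinery, and Chchd6 and Apoo of the complex that shapes cristae junctions. Mipep, which trims presequences in the matrix, was lower. Against cryopreservation-1, Mtx2 and Apoo were higher and Mipep was lower, which is 11.1% of the 27 where 2.75% of all tested genes were called. Cryopreservation-1 against fresh gave none (smallest edgeR adjusted p = 1). The median log2 fold change over the 27 genes was 0.58 for cryopreservation-2 against fresh, 0.43 against cryopreservation-1 and 0.18 for cryopreservation-1 against fresh, where it was -0.055, -0.066 and 0.024 over all tested genes.

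Mtx2 averaged 12.1 ± 1.88 CPM in cryopreservation-2, 1.77 ± 0.842 CPM in cryopreservation-1 and 1.72 ± 0.964 CPM in fresh (log2 fold change against fresh 2.81, SE 0.49, edgeR adjusted p = 0.0140). Apoo averaged 70.0 ± 12.4 CPM in cryopreservation-2, 26.6 ± 7.89 CPM in cryopreservation-1 and 22.4 ± 4.29 CPM in fresh (1.64, SE 0.27, edgeR adjusted p = 0.0113). Mipep averaged 35.9 ± 3.10 CPM in cryopreservation-2, 81.6 ± 7.06 CPM in cryopreservation-1 and 72.1 ± 22.2 CPM in fresh (-1.0, SE 0.24, edgeR adjusted p = 0.0399). Samm50 averaged 21.4 ± 2.97 CPM in cryopreservation-2, 16.7 ± 3.26 CPM in cryopreservation-1 and 8.73 ± 0.610 CPM in fresh (1.3, SE 0.24, edgeR adjusted p = 0.0190). Chchd6 averaged 29.6 ± 1.83 CPM in cryopreservation-2, 14.5 ± 3.47 CPM in cryopreservation-1 and 8.88 ± 3.88 CPM in fresh (1.74, SE 0.35, edgeR adjusted p = 0.0233). Without 1 library, the number of calls against fresh ranged from 1 to 5. The Mtx2 and Apoo calls were lost without fresh replicate 3 (edgeR adjusted p = 0.0506 for each). That of Samm50 was lost without fresh replicate 1 (0.0545), 2 (0.0501) or 3 (0.0612) or cryopreservation-2 replicate 3 (0.0594). That of Chchd6 was lost without fresh replicate 1 (0.0501) or 2 (0.0562) or cryopreservation-2 replicate 2 (0.0656) or 3 (0.0624). The Mipep call held without fresh replicate 2 and was lost without any 1 of the other 8 libraries, at adjusted p-values of up to 0.140.

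Against cryopreservation-1, the log2 fold change was 2.76 for Mtx2 (SE 0.49, edgeR adjusted p = 0.0220), 1.40 for Apoo (SE 0.27, edgeR adjusted p = 0.0285) and -1.18 for Mipep (SE 0.24, edgeR adjusted p = 0.0326). Each of these calls was lost without cryopreservation-1 replicate 1 (edgeR adjusted p = 0.0635, 0.132 and 0.133), without cryopreservation-1 replicate 3 (0.105, 0.126 and 0.101) and without cryopreservation-2 replicate 3 (0.0553, 0.0797 and 0.134), in that order of genes. Mtx2 and Mipep also lost theirs without cryopreservation-1 replicate 2 (0.0798 and 0.0924) or cryopreservation-2 replicate 2 (0.0544 and 0.0835), and Apoo and Mipep without cryopreservation-2 replicate 1 (0.0512 and 0.0917).

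Transcript length moved with the fold change over all genes in cryopreservation-2 against fresh. Genes were split by length into 4 bins of like size. Of genes in the shortest bin, with transcripts of up to 1398 bases, 5.38% were called higher and 0.799% lower, and the median log2 fold change was 0.37. In the longest bin, from 4147 bases, 1.42% were called higher and 2.53% lower, and the median was -0.22. Timm and Tomm transcripts were shorter than most, with a median of 1718 bases over the 22 tested genes and 2548 bases over all tested genes. Between these bins the medians over all genes were 0.0027 and -0.19, from shorter to longer. The median log2 fold change of the members was 0.91 for the 7 in the shortest bin, 0.18 for the next 8, 0.11 for the next 4 and 0.41 for the 3 longest. Lengths are those of the longest annotated protein-coding transcript of each gene, or the longest of any kind where there was none. The form present in these oocytes was not determined. By these lengths Timm10 has 690 bases and Timm17a 7280 bases, near opposite ends of this range. After a correction for length and GC content, the log2 fold change against fresh was 1.84 for Timm10 (edgeR adjusted p = 0.0156), 1.71 for Timm17a (adjusted p = 0.0098) and -0.79 for Tomm34 (adjusted p = 0.148). The fold of Tomm34 was the same to 2 decimals as without the correction, though its call was lost. The median log2 fold change of the 22 genes was 0.44 after the correction and 0.60 without it. Against cryopreservation-1 the medians over all genes were 0.25, -0.080, -0.22 and -0.15, from the shortest bin to the longest. Those of the members were 0.75, 0.12, 0.27 and 0.30. In the shortest bin 2.37% of all genes were called higher and 0.433% lower. The median of the 22 genes was 0.43 after the correction in this comparison and 0.50 without it.

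**Figure D4:**
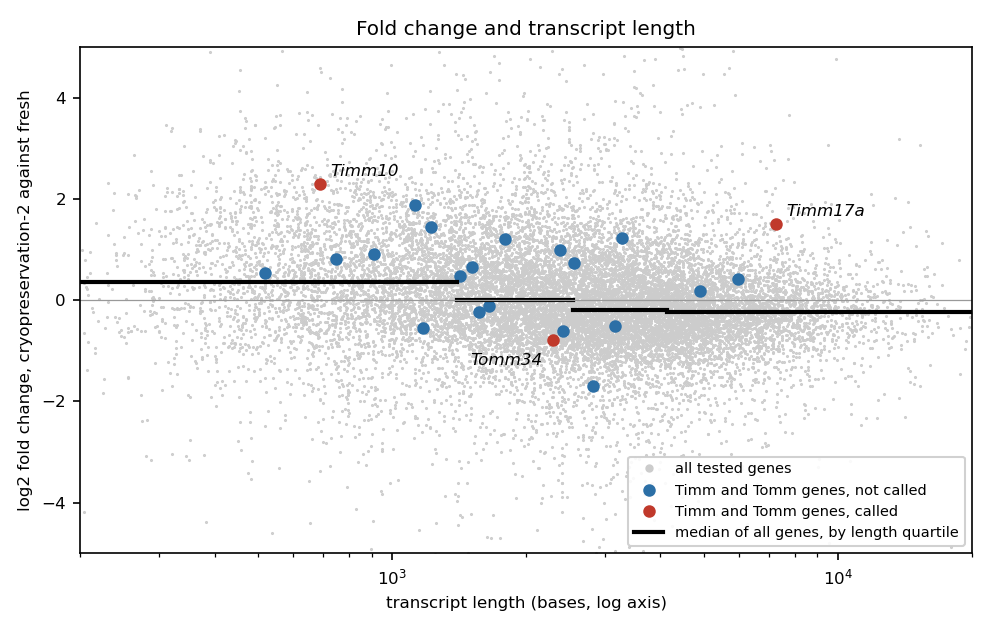
Log2 fold change in cryopreservation-2 against fresh by transcript length on a log axis, for all tested genes in grey and the 22 Timm and Tomm genes in colour, with 590 of the 17545 tested genes outside the axes. Black lines are the medians of all genes in each length bin, 0.37 in the shortest and -0.22 in the longest. Timm10 and Timm17a lie above these lines and Tomm34 below.

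Promoters of the called genes and of 3 abundant or partner chaperones are shown to set their sequence beside these values, since many mitochondrial genes are known to carry sites for GABPA, also called NRF2, and NRF1. RefSeq promoters (GRCm38.p6) were found for 21 of the 24 genes, with 23 start sites. The search covered 250 bases before each start, on both strands, for CCGGAAG (GABPA) and for GCGCA and GCGC with 1 free base between them (NRF1), and capitals mark matches in the 100 bases before the start, read 5′ to 3′ on the strand of the gene.
Timm10: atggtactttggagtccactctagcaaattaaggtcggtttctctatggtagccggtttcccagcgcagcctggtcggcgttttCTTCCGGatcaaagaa
Timm9: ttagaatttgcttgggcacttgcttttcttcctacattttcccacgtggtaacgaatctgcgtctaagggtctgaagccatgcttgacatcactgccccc
Timm8b: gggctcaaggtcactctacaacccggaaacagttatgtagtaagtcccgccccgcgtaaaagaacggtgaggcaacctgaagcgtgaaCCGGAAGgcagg
Timm8a2: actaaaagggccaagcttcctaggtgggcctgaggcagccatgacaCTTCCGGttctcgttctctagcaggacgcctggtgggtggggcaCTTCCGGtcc
Timm17a: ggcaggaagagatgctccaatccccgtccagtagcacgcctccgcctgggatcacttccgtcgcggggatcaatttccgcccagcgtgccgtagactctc
Tomm34: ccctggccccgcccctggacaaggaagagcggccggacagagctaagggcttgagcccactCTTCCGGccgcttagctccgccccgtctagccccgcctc
These are chr2:84826921-84827020 (plus strand), chr12:71136676-71136775 (minus), chr9:50603801-50603900 (plus), chr14:122034574-122034673 (plus), chr1:135313738-135313837 (minus) and chr2:164071170-164071269 (minus).

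CCGGAAG occurred before the start of 8 of the 21 genes, Timm10, Timm23, Timm29, Timm8a2, Timm8b, Tomm22, Tomm34 and Tomm70a, in 9 of 23 promoters. It occurred in 6.91% of all 32851 promoters in the table. The NRF1 motif occurred for 1 gene, Tomm20, and in 3.74% of all promoters. The YY1 motif AANATGGC was found for none of the 21 genes and in 3.91% of all promoters, and TATAAA was found for Timm13 and Tomm5 and in 12.4%. Median GC content was 57.6% in the promoters of these genes and 52.4% in all promoters, and the GABPA and NRF1 motifs are themselves rich in G and C. Of the called genes, Timm10 and Tomm34, which moved in opposite directions, hold CCGGAAG and Timm17a does not. A match is a stretch of letters and not a measured binding site.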

How the data were processed

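The data are 9 poly(A) RNA-seq libraries of mouse oocytes. The authors deposited 1 table with a raw count column and an FPKM column per library. The deposited counts are whole reads per gene and were not normalized. The FPKM values deposited by the authors were checked against the counts: for genes with at least 50 counts, the count-to-FPKM ratio relative to fresh replicate 1 varied over genes with an SD (log2) between 0.00604 and 0.00696, so FPKM there is close to the count scaled by 1 value per gene and 1 per library. Lower counts were not checked. The submitters' processing notes name cutadapt 1.9, HISAT2 2.0.4, StringTie 1.3.4d and GRCm38. Which program counted the reads, with which annotation and strand setting, is not given in the sources used here. Reads of a gene and of an overlapping or antisense neighbour therefore cannot be told apart. Exons of 11 of the 24 genes overlap another gene, those of Timm10, Timm17a and Tomm34 do not.

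Counts were tested with edgeR 4.0.16 in R 4.3.3 (filterByExpr at its minimum count, 10, and minimum total, 15; TMM; quasi-likelihood test; all 9 libraries in 1 fit). P-values were adjusted by Benjamini and Hochberg over all 17545 tested genes, and a gene was called at an adjusted p under 0.05. The SE is the log2 fold change divided by the square root of the F statistic, and the common biological coefficient of variation was 0.662. Total counts were 49337232 to 80877288 per library, and intervals and floors cover counting error only. Replicates differed by more than sampling noise (chi-square per degree of freedom 85.8 to 326), so none was counted as a duplicate. The sign and size of fold changes were checked on simulated counts, in which 200 genes above a minimum level were changed. Many Timm and Tomm genes lie below that level, so the check does not cover them. Rates of false and missed calls are not given here.

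Alternatives were RLE size factors, no filter, DESeq2 1.42.0, limma 3.58.1 on log2(FPKM + 1), a fit of 2 groups, a correction for length and GC content (GENCODE M21 transcripts), the replicate number as a block, and leaving out each library. Values were given per library for called Timm and Tomm genes, and as mean and SD for called genes of the list of other import genes. Of the rest, genes below the filter, the 3 highest by FPKM and paralogs of called genes were named first, and further genes were named by role after their values were seen. The members, the roles and the list of other import genes were chosen with earlier results of these data known. Minos1, a gene of that list, was not analysed here. Sequences are from RefSeq, with no protein sequence used here.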

Additional observations from a re-analysis of the deposited data

How the results depend on the processing

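Over 16 alternatives, the median log2 fold change of the tested Timm and Tomm genes was 0.44 to 0.84 for cryopreservation-2 against fresh, 0.39 to 0.63 against cryopreservation-1 and -0.12 to 0.24 for cryopreservation-1 against fresh. Against fresh, 3 of these genes were called in cryopreservation-2, with 5 by DESeq2, 6 by limma and 0 to 4 without 1 library (0 without fresh replicate 1 or 3, 1 without cryopreservation-2 replicate 2 or 3). Against cryopreservation-1 the count was 1, with 2 by RLE size factors, 4 by DESeq2, 4 by limma, 2 after the length and GC correction and 0 to 1 without 1 library. Cryopreservation-1 against fresh had 0 under every alternative. For the other import genes, whose alternatives were chosen after seeing the data, the 5 calls against fresh became 11 by DESeq2, 9 by limma and 1 to 5 without 1 library. The 3 against cryopreservation-1 became 5 by DESeq2, 2 after the length and GC correction and 0 to 3 without 1 library. Beside these counts, edgeR called 5.38% of all tested genes against fresh, DESeq2 14.6% and limma 10.2%. Against cryopreservation-1 the shares of all tested genes were 2.75%, 11.4% and 6.7%, in the same order. The Timm10 log2 fold change of -0.30 in cryopreservation-1 against fresh ranged from -0.63 to 0.084 without 1 library (0.084 when fresh replicate 2 and 0.024 when cryopreservation-1 replicate 3 was left out), and the cause was not tested.

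With the replicate number as a block, 2 Timm and Tomm genes were called against fresh (Tomm34 was lost, adjusted p = 0.0697), 1 against cryopreservation-1 and 0 for cryopreservation-1 against fresh. For the other import genes the counts under the block were 4, 1 and 0. Deviations of same-numbered libraries correlated at -0.12 to 0.12, over 0.1 in 1 of 9 pairs, and those of differently numbered libraries at -0.089 to 0.13. Between cryopreservation-1 and fresh the same-numbered pairs stood at 0.072, 0.079 and 0.12, above all differently numbered ones, at -0.089 to 0.024. With so few pairs this cannot decide whether the numbers pair the libraries.

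Over all genes, 944 were called against fresh (59.1% of them higher), with 2447 by DESeq2, 1792 by limma (80.7% higher), 429 with 2 groups in the fit (82.1% higher), 500 with the block, 1197 (45.7% higher) after the length and GC correction and 231 to 786 without 1 library (398, 594 and 231 when fresh replicates 1, 2 and 3 were left out in turn, 491 and 511 for cryopreservation-1 replicates 1 and 2, 365 and 282 for cryopreservation-2 replicates 2 and 3). Against cryopreservation-1 the number was 483 (54.5% higher), with 1868 by DESeq2, 1175 by limma (73.3% higher), 230 with the block, 726 (66.4% higher) after that correction and 15 to 480 without 1 library (15 without cryopreservation-1 replicate 1, 16, of which 37.5% were higher, without its replicate 3, 103 without its replicate 2, 96 without cryopreservation-2 replicate 3, 174 without its replicate 2, 237 without its replicate 1). The background shares of 5.38% and 2.75% rest on these counts. That correction moved the median log2 fold change of all genes in cryopreservation-1 against fresh to -0.12. Depth limits what can be said of Timm22, Tomm5 and Tomm40l, and sequence shared with other genes limits Tomm6, Timm23, Tomm40l (64.1% of 50-base stretches), Timm8a1 (41.0%), Timm10b (19.9%) and Tomm40 (13.1%).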

Other observations

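Timm23 shares most of its sequence with 3 processed pseudogenes, Gm10273, Gm10171 and Gm10233, which were looked up after the values of Timm23 were seen. Timm23 itself held 47.3 to 49.3% of the CPM summed over these 4 genes in cryopreservation-2, 47.7 to 83.5% in cryopreservation-1 and 50.1 to 52.9% in fresh. The value of 83.5% belongs to cryopreservation-1 replicate 2, in which Timm23 had 459 CPM. Replicates 1 and 3 of that group had shares of 50.8 and 47.7% with 184 and 203 CPM. The summed CPM of the 4 genes was 335, 328 and 388 in cryopreservation-2, 361, 550 and 426 in cryopreservation-1, and 402, 671 and 359 in fresh. These sums overlapped between cryopreservation-2 and fresh, where the values of Timm23 alone did not.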
